A study of Drosophila melanogaster with 60 samples.

Results

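In fly heads, 100 of the 7444 genes measured in the RNAi experiment followed a 24 h cosine curve in the control flies of that experiment and reached its crest late in the night, from ZT18 up to ZT24. ZT is Zeitgeber time, in hours after lights on. The members were chosen on the 18 libraries labelled conRNAi alone: the transcript of highest mean was taken for each gene, a 24 h cosine and sine were fitted to log2(value + 1) by ordinary least squares, and a gene entered at an F test p under 0.005 with its fitted peak in the window. The clock genes per, tim, Clk, cyc, vri, Pdp1, cwo, cry and Pdf were left out by the rule, although none of those measured would have entered.

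Poly(A) RNA of Drosophila melanogaster heads was sequenced from the 3′ end in 60 libraries at ZT3, 7, 11, 15, 19 and 23. The genotype labelled conRNAi carries the Tim-gal4 driver and UAS-Dcr2, which encodes a Dicer protein that strengthens RNAi. The genotype labelled RNAi carries Tim-gal4 and a UAS construct for RNAi against cabut (cbt), and its label lists no UAS-Dcr2. Each of these was followed in 3 courses, with 18 libraries per genotype. The genotype labelled conOE carries Tim-gal4 alone and the one labelled OE carries Tim-gal4 and UAS-cbtFLAG, each in 2 courses with 12 libraries. Tim-gal4, the driver shared by every genotype, acts in cells that express timeless, and a head also holds many other cells. The labels give neither sex nor age, and nothing in them says that courses came from separate flies, so a p-value here reflects only how much these libraries vary, part of which may be technical. OE and RNAi below stand for the libraries with those labels.

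The circadian clock of the fly rests on the activators Clock and Cycle, which switch on period and timeless around dusk, and on the proteins of those genes, which shut the activators down late at night. A second loop through vrille and Pdp1 times Clock and a set of output genes to the end of the night and the early morning. Among the outputs of that phase known in fly heads is takeout (to), a secreted protein linked to feeding and starvation that is made in fat body and other head tissues. The protein of cabut is a zinc finger transcription factor with a part in sugar sensing, and it is itself linked to clock output.

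The values are read counts divided by a scale factor of each library, called normalised counts here. The 2 experiments were deposited as tables scaled separately, so every test was made within a table, and levels set across them are side by side only. Read totals are estimates from the step between low values, and ran from 348990 to 13923048 per library, and in every genotype the shallowest library was ZT23 of course 2. cbt went against its label in 1 experiment: it had 284.9 ± 31.4 normalised counts in conOE and 95.4 ± 25.5 in the libraries labelled OE (SD, n = 12 each, limma log2 change -1.61, SE 0.12, adjusted p = 3.4e-11). It had 317.7 ± 36.7 in conRNAi and 308.2 ± 55.5 in the libraries labelled RNAi (SD, n = 18 each, log2 change -0.06, SE 0.07, adjusted p = 0.62). Dcr-2, the gene that UAS-Dcr2 is named for, ran from 53.5 to 90.3 in conRNAi and from 37.4 to 88.3 in RNAi (n = 18 each, limma log2 change -0.19, SE 0.10, adjusted p = 0.17). Of 12 photoreceptor, 7 neuronal and 7 glial markers, 12, 7 and 7 were measured in the RNAi table, as heads should show, and none of 5 gut markers was.

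The cosine amplitude of the members in conRNAi, which is the distance from mean to crest on the log2 scale, ran from 0.10 to 2.78 with a median of 0.36. These values chose the members and are given as a description with no test. At the same p, 353 genes (4.74% of 7444) had a rhythm at any time of day, and the 100 members are 1.34% of the genes. The peaks spread over the window, with 28 members from ZT18 to ZT20, 35 from ZT20 to ZT22 and 37 from ZT22 to ZT24. The mean level of the members ran from 17.2 normalised counts for CG17777 to 30914 for CG17108. Its median was 178 for the members and 73.1 for all genes. The shares of members and of all genes set side by side below are not matched for level. The part of level in them was not tested. In conRNAi none of the 100 lay above its own mean at ZT7 or ZT11, and 99 lay above it at ZT19 and 99 at ZT23. For 88 of them every ZT23 library stood above every ZT11 library (8.8% of all genes).

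CG34134 had the widest swing, with an amplitude of 2.78 (SE 0.13) and a peak at ZT22.9 (SE 0.18), a 46.9-fold distance from trough to crest. Its libraries read 1167, 1002 and 1202 normalised counts at ZT23 and 37.2, 28.6 and 12.3 at ZT11. takeout (to) followed with an amplitude of 1.77 (SE 0.15), also at ZT22.9, an 11.6-fold swing. Its 3 libraries read 1656, 2069 and 1996 at ZT23 against 132, 144 and 226 at ZT11. In both genes the late-night libraries lay far above those of late day, without overlap. Only 3 other members had an amplitude above 1. They were CG42367 with 1.22, CG17777 with 1.06 and Obp99b with 1.04. Obp99b is an odorant binding protein that is also made in head fat body. Neither Obp99b nor CG17777, the member of lowest mean level, passed the rhythm test described below in another genotype.

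The other members of lowest p in conRNAi had smaller swings. CG5618 and CG1943 both had an amplitude of 0.51 (SE 0.03), at ZT22.6 and ZT18.7. Culd, a transmembrane protein that takes part in the endocytosis of rhodopsin and its channel, had 0.57 (SE 0.06) at ZT23.4. CG10553 had 0.56 at ZT21.3 and CG17124 had 0.53 at ZT21.0. Sirup, an assembly factor of succinate dehydrogenase, had 0.48 at ZT19.7, and the neprilysin-like peptidase gene Nepl18 had 0.69 at ZT23.0. CAH2, a carbonic anhydrase, had 0.35 at ZT22.9, and Cyp6a20, a cytochrome P450 known for its part in male aggression, had 0.42 at ZT21.8. At the weak end the swings were shallow: Cyt-c1 of respiratory complex III had an amplitude of 0.10, a 1.15-fold distance from trough to crest.

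The edge of the list was not a gap. The last members inside were Cyt-c1, CG31344 and Pdk, the kinase that switches off pyruvate dehydrogenase, with F test p values over 18 libraries of 0.00461, 0.00479 and 0.004998 and amplitudes of 0.10, 0.33 and 0.14. The first genes outside were CG6693, CG6770 and Sfxn1-3, with p values of 0.00504, 0.00517 and 0.00555 and amplitudes of 0.19, 0.23 and 0.18. Leaving out course 1 of conRNAi left 54 genes that met the rule, of which 47 were members, and leaving out course 3 left 48, of which 43 were members. Leaving out course 2 gave 87 genes with 51 members among them, and leaving out all ZT23 libraries gave 77 with 52.

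Some members are neighbours on the chromosomes. By the order of genes in the RefSeq table, 7 pairs of members were direct neighbours, among them the P450 genes Cyp6a20 and Cyp6a21, the peptidase genes Nepl18 and Nepl19, CG17108 with CG7300, and CG4716 with CG10799. Of the 7 pairs, 3 have overlapping spans, and the number of pairs was not set against other gene lists. Of the pairs named, Nepl18 and Nepl19 both peaked at ZT23.0, and CG17108 and CG7300 at ZT21.8 and ZT21.9. CG4716 and CG10799 peaked at ZT21.8 and ZT21.5, and Cyp6a20 and Cyp6a21 further apart, at ZT21.8 and ZT23.5. The gene spans of mi and bw, of atl and Wsck and of CG17931 and CG42446 overlap. Both mi and bw peaked at ZT21.1, while atl and Wsck peaked at ZT23.4 and ZT20.9. CG17931 and CG42446 have the same value in every library, so the list holds 99 distinct profiles, and how reads of the other overlapping pairs were divided is not given in the sources used here. The X chromosome holds 8 of the 100 members and 1258 of the 7444 genes, and 41 members are known by a CG number only.

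**Figure D1:**
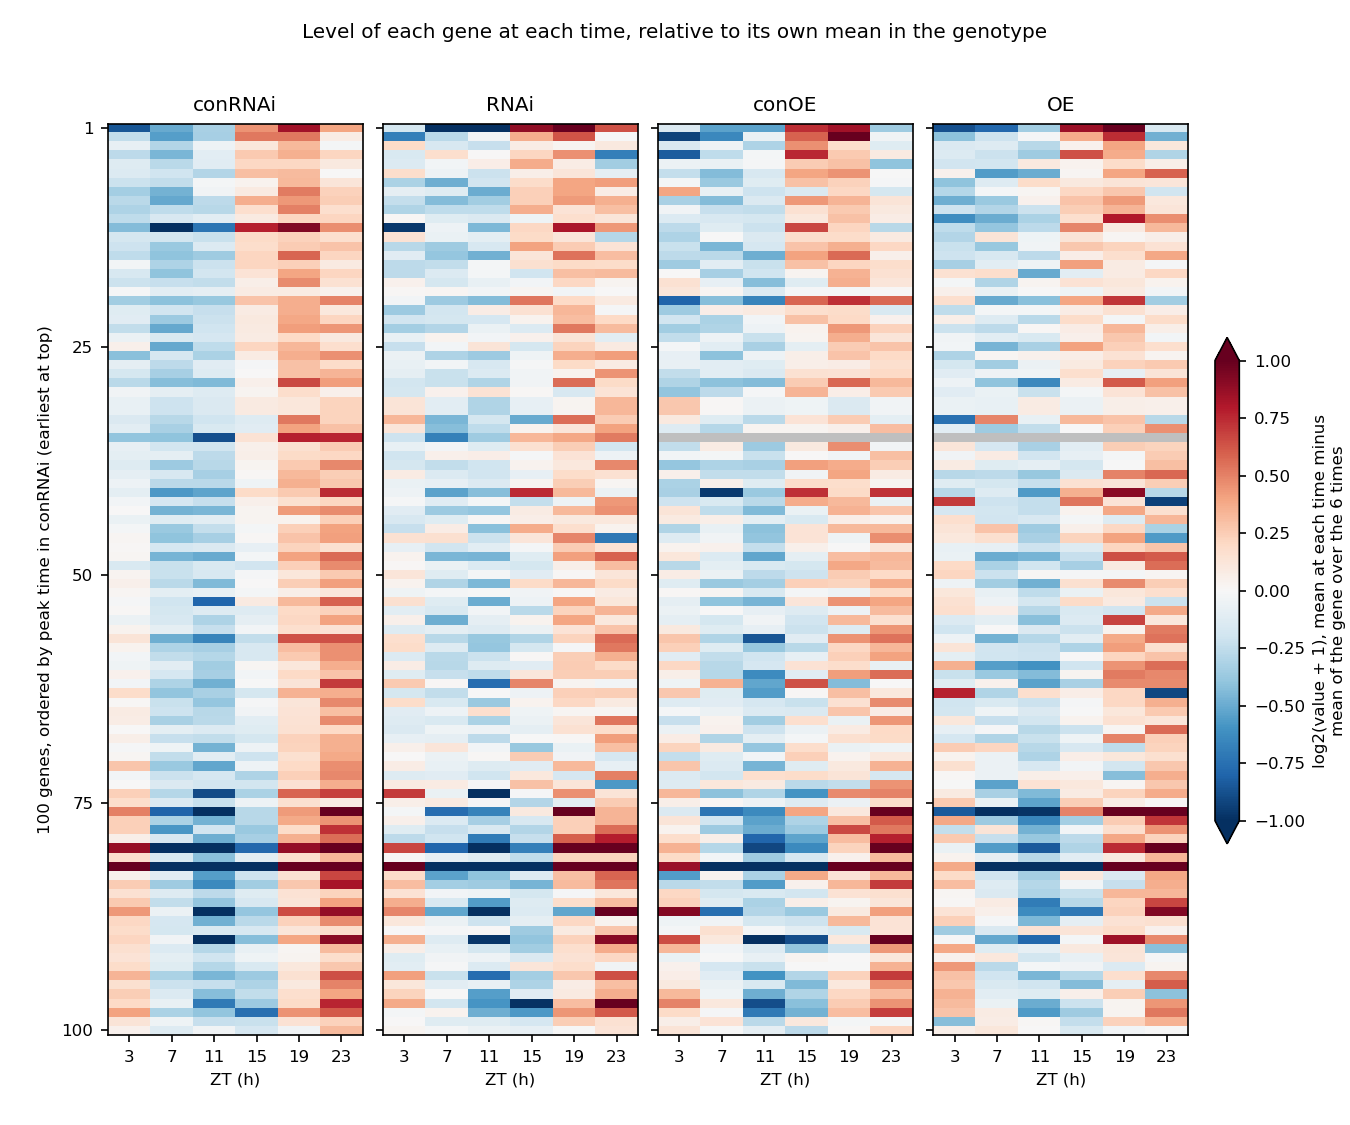
Level of the 100 members at each of 6 times (x axis, ZT in hours) in 4 genotypes, as the mean log2(value + 1) at that time minus the mean over the 6 times, with 1 row per gene ordered by peak time in conRNAi. Blue at ZT7 and ZT11 and red at ZT19 and ZT23 fill the conRNAi panel, which chose the genes, and the same order of colours, less even, runs through the other panels; the grey row is CG13670, which is in 1 table only.

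The rule used no library of the other 3 genotypes, so their rhythms could be tested. In the libraries labelled RNAi, 24 of the 100 members had a 24 h rhythm at a limma adjusted p under 0.05, against 2.18% of all 7444 genes, and for 22 of the 24 the fitted peak again fell from ZT18 to ZT24 (0.497% of all genes). In conOE, 19 of the 99 members in that table passed, against 1.22% of 7648 genes, 14 of them with the peak in the window (0.275%). In the libraries labelled OE, 13 of 99 passed, against 0.601%, 11 of them in the window (0.183%). The authors' deposited table, with its own rhythm test, has a q under 0.05 for 51 of 100 members in RNAi (821 of 7444 genes), 35 of 99 in conOE (574 of 7648) and 39 of 99 in OE (536 of 7648).

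These counts rest on few libraries per genotype. In conOE 1 or 2 members passed when 1 of its courses was left out, and 8 passed without the ZT23 libraries. In RNAi the count was 14 without course 1 and 14 without course 3, and 22 without course 2. In OE 14 passed without either course. Without libraries under 1000000 reads the counts were 29 in RNAi, 19 in conOE and 9 in OE.

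Whether or not they passed, most members crested in the same part of the night. The fitted peak fell from ZT18 to ZT24 for 74 of 100 members in RNAi (25.6% of all genes), 62 of 99 in conOE (22.9%) and 61 of 99 in OE (25.1%). It lay within 3 h of the conRNAi peak for 79, 83 and 77 members, with a median distance of 1.21 h, 1.16 h and 1.39 h. Every ZT23 library lay above every ZT11 library for 41 of 100 members in RNAi (6.92% of all genes), 63 of 99 in conOE (17.1%) and 61 of 99 in OE (18.4%). With no threshold involved, the median member stood 0.23 above its mean at ZT23 and 0.18 below it at ZT11 in RNAi on the log2 scale, 0.20 above and 0.22 below in conOE, and 0.23 above and 0.24 below in OE.

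The median amplitude of the members was 0.27 in RNAi (all genes 0.16), 0.29 in conOE (0.16) and 0.28 in OE (0.19). It was smaller than in conRNAi for 77 of 100, 74 of 99 and 66 of 99 members, where conRNAi is the genotype whose amplitudes picked them, so no test was made of that difference. Members of strong p in conRNAi passed more often elsewhere. Of the 25 members of lowest p, 13 passed in RNAi, 11 in conOE and 9 in OE, and of the 25 of highest p, 1, 0 and 0 passed.

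**Figure D2:**
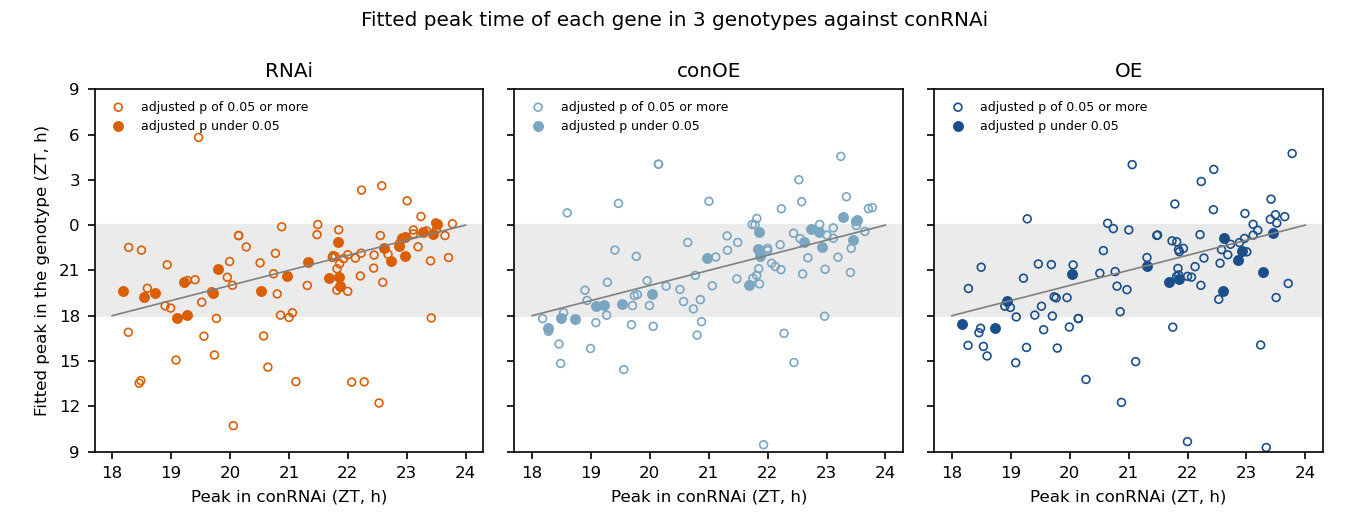
Fitted peak time (y axis, ZT in hours, running through midnight) of each member in RNAi, conOE and OE against its peak in conRNAi (x axis, ZT in hours). Filled points passed the rhythm test at an adjusted p under 0.05 (24, 19 and 13 genes), the grey band is ZT18 to ZT24 and the line marks equal peaks; most points lie in the band.

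A set of 8 members had a rhythm past the test in all 3 other genotypes: CG34134, CG5618, CG1943, to, Culd, Rh5, CG11891 and b. How many of all genes passed in all 3 was not counted. CG34134 kept the widest swing, with an amplitude of 2.50 (SE 0.13, adjusted p = 1.19e-12) at ZT23.1 in RNAi. In conOE it was 2.56 (SE 0.12, adjusted p = 1.14e-08) at ZT22.6, and in OE 2.23 (SE 0.13, adjusted p = 5.48e-08) at ZT22.3. Its ZT23 libraries read 1039, 532 and 1095 normalised counts in RNAi, 958 and 920 in conOE, and 878 and 965 in OE. At ZT11 they read 33.6, 27.5 and 34.8, then 38.4 and 21.2, and 35.1 and 46.5. In each of the 4 genotypes the ZT23 libraries stood far above those of ZT11.

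For to the amplitude was 1.32 (SE 0.14, adjusted p = 4.82e-06) in RNAi, 0.98 (SE 0.14, adjusted p = 0.00288) in conOE and 0.93 (SE 0.11, adjusted p = 0.000245) in OE, with peaks at ZT22.6, ZT23.5 and ZT21.7. The ZT23 libraries of to read 1527, 1235 and 1426 normalised counts in RNAi, 238 and 371 in conOE, and 185 and 237 in OE. At ZT11 they read 117, 325 and 525, then 45.5 and 93.5, and 61 and 52.9. No ZT23 library overlapped a ZT11 library of its genotype. The level of to over all times did not pass the test in either experiment (log2 change 0.28, SE 0.15, in RNAi and -0.27, SE 0.13, in OE).

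CG11891 stands in the list of clock outputs of the head, and its role is not given here. Its amplitude was 0.82 (adjusted p = 0.000459) in RNAi, 1.15 (adjusted p = 0.000524) in conOE and 0.76 (adjusted p = 0.00295) in OE. The ZT23 libraries of CG11891 read 139, 135 and 132 in RNAi, 106 and 110 in conOE, and 151 and 202 in OE. Its crest stood at ZT23.5, ZT0.5 and ZT20.9 in that order, and only in OE did the ZT19 libraries, with 208 and 245, exceed those of ZT23.

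Culd had an amplitude of 0.68 (SE 0.07) in RNAi, 0.55 (SE 0.07) in conOE and 0.47 (SE 0.07) in OE, at ZT23.4, ZT23.0 and ZT23.5. The ZT23 libraries of Culd read 659, 517 and 910, then 736 and 929, and 563 and 631, and those of ZT11 246, 258 and 259, then 343 and 326, and 334 and 289. CG5618 had 0.32, 0.54 and 0.68 with peaks between ZT22.5 and ZT23.2. CG1943, the earliest of the 8, had 0.49, 0.45 and 0.45, at ZT19.5, ZT17.8 and ZT17.2. Rh5, the blue-sensitive opsin of a subset of R8 photoreceptors, had 0.37, 0.39 and 0.45, with peaks from ZT20.0 to ZT20.5. The gene b (black), which encodes the aspartate decarboxylase that makes beta-alanine, had 0.29, 0.56 and 0.53, at ZT20.0, ZT21.9 and ZT20.4. The adjusted p of these 5 genes lay between 6.77e-07 for Culd in RNAi and 0.0349 for Rh5 in OE.

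**Figure D3:**
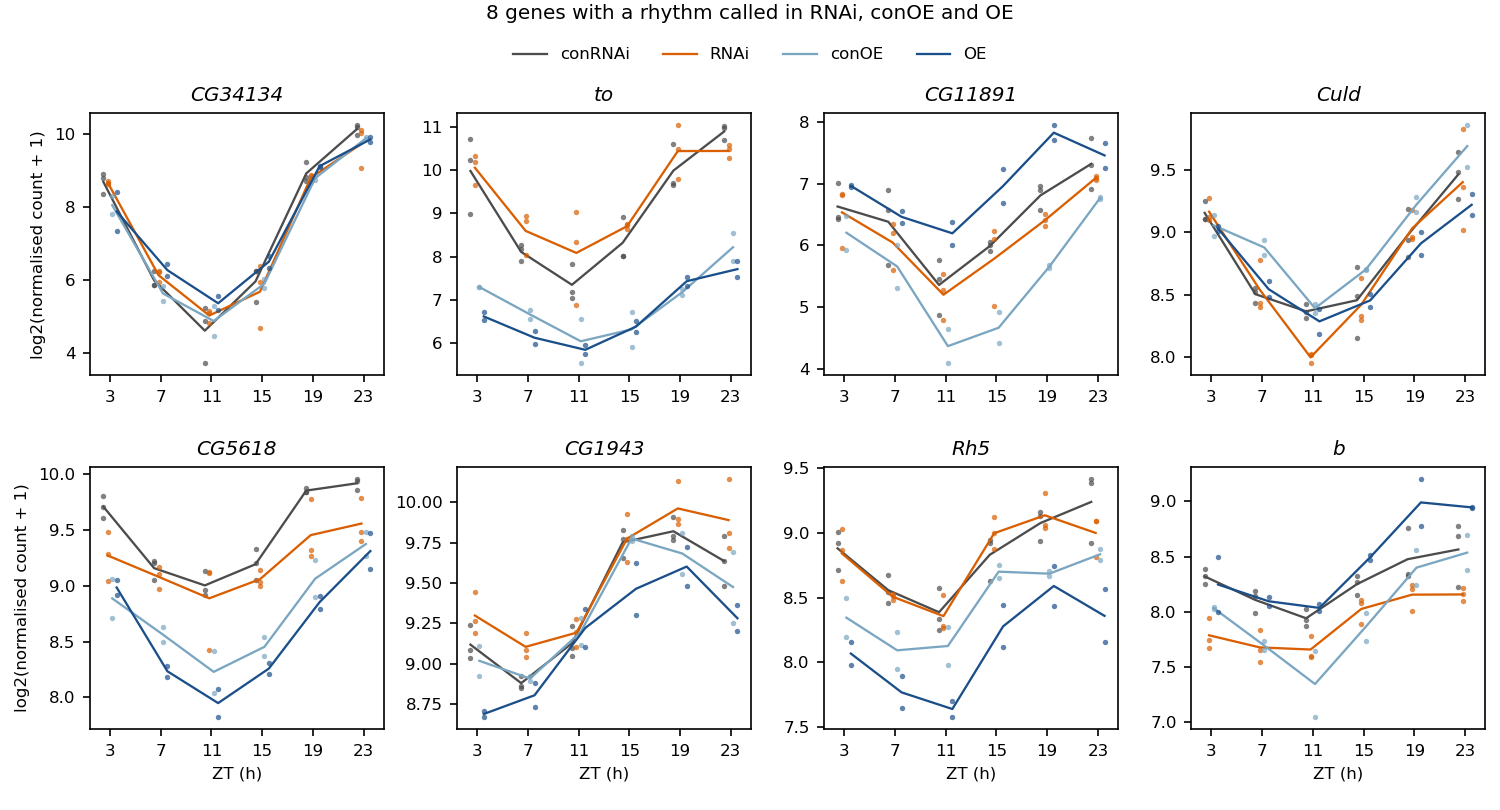
Time courses of the 8 genes with a rhythm past the test in RNAi, conOE and OE, as log2(normalised count + 1) per library (points) and the mean at each time (lines) against ZT in hours, with genotypes shifted slightly sideways. In each panel the mean at ZT23 lies above that at ZT7 in all 4 genotypes, while the highest mean is earlier than ZT23 in some, as for CG1943 in conOE at ZT15; levels of conOE and OE are on a scale separate from those of conRNAi and RNAi.

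A further 9 members passed in 2 of the 3 genotypes and 14 in 1, and 69 passed in none. The same counts were not made over all genes. Among the 9 were CG10553, CG17124, CG17108, Cyp4d21, Cyp6a21, Xport-A, CG31300, CG6409 and Listericin. Listericin, an antibacterial peptide gene, had an amplitude of 0.55 (adjusted p = 0.00428) in conOE and 0.60 (adjusted p = 0.0198) in OE, at ZT19.4 and ZT20.7. Rab32, which serves the biogenesis of eye pigment granules, passed only in OE, with 0.69 (SE 0.09, adjusted p = 0.000924) against 0.23 (SE 0.09) in conOE. Its OE libraries read 784 and 800 at ZT19 and 325 and 320 at ZT7, and its conOE libraries 1479 and 1079 at ZT19 and 774 and 1103 at ZT7, where they overlapped. CG42367 passed only in OE, with 1.53 (adjusted p = 9.76e-05), and CG10175 only in conOE, with 0.94 (adjusted p = 0.002).

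Whether a rhythm differed between OE and conOE was tested directly. None of 7648 genes (0%) passed at a limma adjusted p under 0.05. At an unadjusted p under 0.05 there were 313 genes (4.09%), and 8 of the 99 members. The members of lowest p were CG11891, Rab32 and CG6429, with unadjusted limma p values of 5.18e-05, 0.00553 and 0.0085, of which the lowest came to an adjusted p of 0.19. The same test was not made in the RNAi experiment, whose control rhythm the rule used.

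By role, the members were grouped after their names and values were seen, so the groups describe the list and were not tested as groups. The first group serves vision and eye colour. It has 9 members: Rh5; Xport-A, a chaperone of the TRP channel and rhodopsin; Cnx99A, the calnexin that rhodopsin needs to mature; rdhB, a retinol dehydrogenase of the visual pigment cycle; Culd; ort, the histamine-gated chloride channel that receives the photoreceptor signal; and the pigment genes bw, se and Rab32. Their conRNAi amplitudes ran from 0.24 for Rab32 to 0.61 for ort. In RNAi and in conOE 8 of the 9 peaked in the window, and in OE 6. Over all genes the shares were 25.6% in RNAi, 22.9% in conOE and 25.1% in OE. The rhythm test was passed by 3 of the 9 in each of these genotypes, against 2.18%, 1.22% and 0.601% of all genes. Xport-A passed in RNAi (0.38, adjusted p = 0.000402) and conOE (0.42, adjusted p = 0.0168). A separate list of phototransduction and visual cycle genes holds Rh5 but none of the other vision and pigment members. Of its 26 measured genes, 12 met the rule's p in conRNAi. Apart from Rh5, which peaked in this window, there were 11. Of these, 5 peaked from ZT0 to ZT6, 3 from ZT6 to ZT12 and 3 from ZT12 to ZT18.

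Cytochrome P450 genes, whose enzymes oxidise hormones, pheromones and foreign compounds, gave 5 members out of 54 measured, and 9 of the 54 met the rule's p at any time. Cyp6a21 had an amplitude of 0.63 in conRNAi, 0.90 (adjusted p = 4.34e-05) in RNAi and 0.66 (adjusted p = 0.0206) in conOE, and did not pass in OE (0.44, adjusted p = 0.16). Its ZT23 libraries read 188, 285 and 221 in RNAi against 77.5, 56.9 and 79.9 at ZT11. Cyp4d21, an enzyme of male heads linked to mating, peaked at the start of the window, at ZT18.2, and passed in RNAi (1.23, adjusted p = 5.52e-05) and OE (1.11, adjusted p = 0.00351). Cyp6a20 passed in conOE (0.38, adjusted p = 0.0158), Cyp6d5 in RNAi (0.26, adjusted p = 0.036), and Cyp4ac1 in none. Of 14 glucuronosyltransferase genes, Ugt36D1 was the single member, with 0.43 at ZT22.0.

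Mitochondrial proteins gave 10 members with shallow curves, from 0.10 to 0.48 in conRNAi. Besides Sirup, Cyt-c1 and Pdk they were Cyt-c-p (cytochrome c), Phb1 (a prohibitin of the inner membrane), QIL1 (a part of the complex that shapes the cristae), bsf (a protein that binds mitochondrial mRNA), and tko, mRpS33 and mRpL50 of the mitochondrial ribosome. Only Sirup passed elsewhere, in RNAi (0.38, adjusted p = 0.00432). Of 71 genes named as mitochondrial ribosomal proteins, mRpS33 (0.25 at ZT23.7) and mRpL50 (0.45 at ZT18.6) met the rule, and no other met its p at any time.

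Of the remaining members with a known role, the sugar genes were Tret1-1, a trehalose transporter, Tps1, which makes trehalose, Gfat1, the first enzyme of the hexosamine path, and alc, a subunit of the energy sensor AMPK. None of the 4 passed in another genotype. Tret1-1 was the one member among the 22 measured genes of a list of nutrient and ion transporters, which does not name bw. Of 14 glutathione and redox genes the members were se, a glutathione transferase that makes the red drosopterin pigment, and Gclc, the catalytic subunit of glutamate-cysteine ligase (0.32 at ZT21.8). Of 19 odorant binding proteins they were Obp99b and Obp56e (0.39 at ZT19.8). Of 17 measured outputs of the head clock they were to, CG10553 and CG11891, and 12 of the 17 met the rule's p at some time of day. The other 18 lists, from glycolysis to cuticle proteins, held no member. The lists are not complete for a role, and that of immune peptides does not name Listericin.

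The level of the members over the day was compared between each pair of genotypes with time as a factor, a contrast the rule did not use, although its conRNAi libraries enter 1 side. In OE against conOE, 46 of 99 members were higher and 24 lower at a limma adjusted p under 0.05, against 22.6% and 18.6% of the 7648 genes. The median log2 change was 0.17, and 0.01 over all genes. In RNAi against conRNAi, 8 of 100 members were higher and 34 lower, against 9.19% and 13.2% of 7444 genes. The median was -0.09, and -0.01 over all genes. As these are whole heads, fewer cells of a type and less RNA per cell cannot be told apart.

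Of the members, Obp99b rose most in OE: conOE libraries ran from 870 through a median of 1563 to 2624 normalised counts, and OE libraries from 5946 through 8788 to 18416 (log2 change 2.53, SE 0.14, adjusted p = 1.76e-13). The genotypes did not overlap. In the RNAi experiment it fell, from 463, 1296 and 4285 (lowest, median and highest) in conRNAi to 206, 741 and 2387 in RNAi, where the ranges overlapped (log2 change -0.80, SE 0.20, adjusted p = 0.002). Nepl18 ran from 46.0 through 92.6 to 202 in conOE and from 255 through 368 to 693 in OE (log2 change 1.99, SE 0.17), again without overlap. In RNAi it fell by 0.63 on the log2 scale (SE 0.09). CG17108, the most abundant member, had a median of 21636 in conOE and 54541 in OE, with a lowest OE library of 34214 above the highest conOE library of 29250 (log2 change 1.67, SE 0.12). CG6409 rose by 1.92 (SE 0.10) and CG13101 by 1.59 (SE 0.13) in OE.

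The eye pigment members bw, se and Rab32 went down in both experiments. bw, a transporter of pigment precursors, ran from 67.9 through 111 to 156 in conOE and from 15.5 through 29.8 to 44.1 in OE (log2 change -1.91, SE 0.15, adjusted p = 1.22e-10). In conRNAi it ran from 77.3 through 103 to 185 and in RNAi from 29.7 through 55.7 to 75.2 (log2 change -0.96, SE 0.10, adjusted p = 1.3e-10). The groups did not overlap in either experiment. mi, whose span overlaps bw, fell by 1.51 in OE (SE 0.16) and 1.01 in RNAi (SE 0.17). se had medians of 384 in conRNAi and 178 in RNAi (log2 change -1.09, SE 0.09, adjusted p = 2.06e-12), and fell by 0.32 in OE (SE 0.09, adjusted p = 0.00599). Rab32 had medians of 1042 in conOE and 423 in OE (log2 change -1.18, SE 0.11), and fell by 0.16 in RNAi (SE 0.05, adjusted p = 0.0137). In OE 7 of the 9 vision and pigment members were lower and none higher, and in RNAi 5 were lower and none higher. That group was formed after its values were seen, so its counts only describe the list. Over all genes, 18.6% were lower and 22.6% higher in OE, and 13.2% lower and 9.19% higher in RNAi. The separate phototransduction and visual cycle list had 16 of 28 genes lower and 3 higher in OE. In RNAi 9 of its 26 genes were lower and 1 higher. The white gene (w), which many transgenes carry as an eye colour marker and which is not a member, rose in both experiments. It had 16.5 ± 6.51 normalised counts in conOE and 86.9 ± 13.3 in OE (SD, n = 12 each). In the RNAi experiment it had 35.0 ± 11.7 in conRNAi and 70.4 ± 20.3 in RNAi (SD, n = 18 each). Its part in the result was not tested.

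Cyp4d21 also fell in OE, from a median of 131 in conOE to 39.9 (SE of the log2 change 0.15, adjusted p = 4.09e-09), and CG7300 fell by 1.39 (SE 0.15). In RNAi CG33307 fell by 0.89 (SE 0.07), and Obp56e fell by 0.84 (SE 0.12), with conRNAi libraries from 1682 through 2706 to 3449 and RNAi libraries from 856 through 1344 to 3018. The 5 largest increases in RNAi were smaller: CG15282 by 0.67 (SE 0.14), CG13670 by 0.60 (SE 0.12), Tret1-1 by 0.40 (SE 0.06), Wsck by 0.31 (SE 0.09) and Cyp6d5 by 0.30 (SE 0.05). Wsck, a receptor tyrosine kinase gene, did not pass without conRNAi course 1 (adjusted p = 0.080), conRNAi course 3 (0.059) or RNAi course 2 (0.072). The count of 8 higher members was 5 without conRNAi course 1.

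Across both experiments, which share no library, 31 members passed in both, 39 in OE alone, 10 in RNAi alone and 19 in neither. In either direction, 70.7% of the 99 members and 41.3% of 7648 genes passed in OE. In RNAi 42.0% of the 100 members and 22.3% of 7444 genes passed. Members and all genes were not matched for level, and the median level in conRNAi was higher for the members. Of the 46 members higher in OE, 18 (39.1%) were lower in RNAi, which is 52.9% of the 34 lower there. On a like base, that pair of calls was found for 18.2% of the 99 members and 6.53% of the 6994 genes that both tables hold. Those were 457 genes, where 1731 genes of the whole OE table were higher and 979 of the whole RNAi table lower. The 18 were Obp99b, Nepl18, Nepl6, CG17108, CG6409, CG42367, CG33307, CG5390, CG4716, CG10799, CG4572, CG9886, CG13833, b, goe, CAP, Phb1 and glob1, the fly's cellular globin. A set of 8 members was lower in both (2.44% of genes): Cyp6a20, bw, mi, se, Rab32, Xport-A, CG7300 and CG6429. A set of 4 was higher in both (1.67%): Tret1-1, Cyp6d5, Cyp6a21 and Sirup. Wsck alone was lower in OE and higher in RNAi (2.85%).

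The neighbouring genes Cyp6a20 and Cyp6a21 moved apart. Cyp6a20 had medians of 257 in conOE and 120 in OE (log2 change -0.93, SE 0.08) and of 211 in conRNAi and 121 in RNAi (-0.72, SE 0.08). Cyp6a21 had medians of 67.2 in conOE and 134 in OE (1.07, SE 0.11) and of 85.8 in conRNAi and 113 in RNAi (0.27, SE 0.10, adjusted p = 0.0457). Nepl19, the neighbour of Nepl18, moved as that gene did in OE (1.34, SE 0.19), and its change in RNAi did not pass (-0.22, SE 0.09, adjusted p = 0.0876). Tret1-1 did not overlap between conOE, with 491 to 766, and OE, with 831 to 1413.

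**Figure D4:**
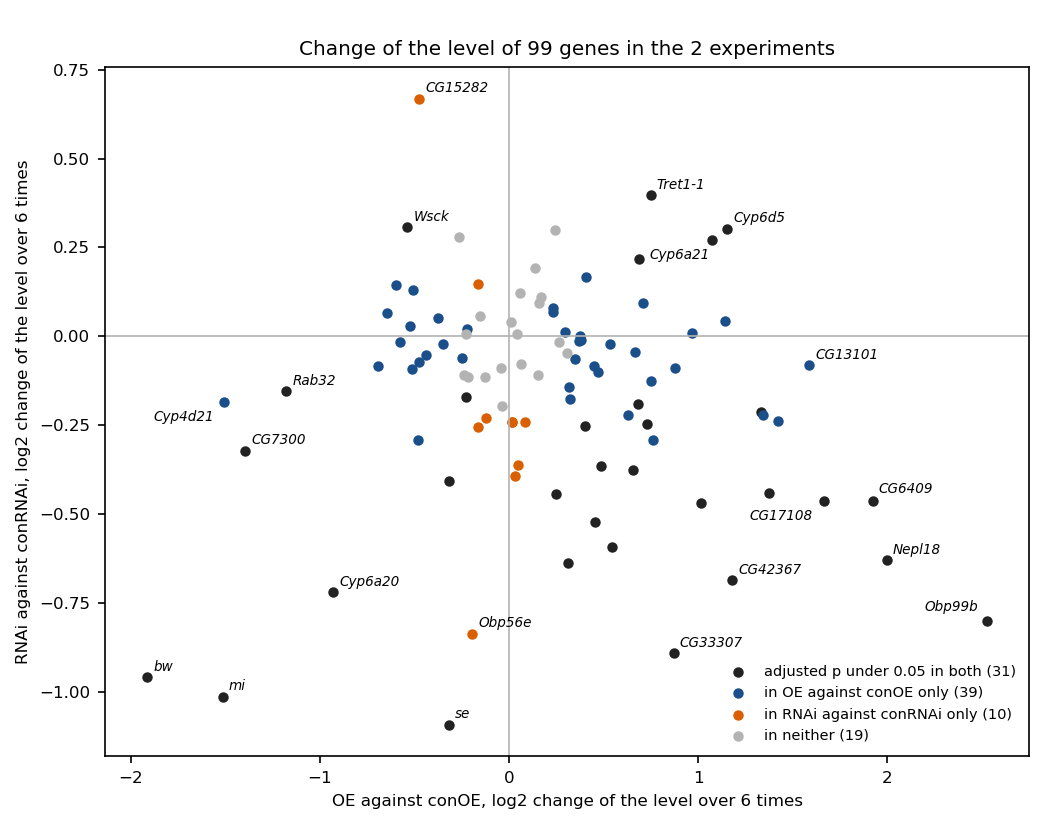
Log2 change of the level of the 99 members in both tables, OE against conOE on the x axis and RNAi against conRNAi on the y axis, each over 6 times, with colours for the experiments in which the adjusted p was under 0.05. The lower right holds genes higher in OE and lower in RNAi such as Obp99b and Nepl18, and the lower left holds the pigment genes bw and se with mi and Cyp6a20.

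Markers of head cell types were counted in the same comparisons. Over all genes, 22.6% were higher and 18.6% lower in OE, and 9.19% higher and 13.2% lower in RNAi. Of 6 head fat body markers, 5 were higher in OE and 0 lower, and in RNAi 1 was higher and 4 lower. Of these 6, to and Obp99b are members. The summed level of the other 4 (apolpp, fit, Lsp1beta and Lsp2) ran from 5032 to 17029 normalised counts in conOE, from 29203 to 74737 in OE, from 11734 to 26892 in conRNAi and from 8420 to 21176 in RNAi. Of 12 photoreceptor markers, 8 were lower and 1 higher in OE and 3 lower in RNAi, with sums from 83111 to 101573 in conOE and 70703 to 89895 in OE, and from 80471 to 107418 in conRNAi and 72339 to 100173 in RNAi. Of the glial markers 5 of 6 were lower and 1 higher in OE, and 1 of 7 was higher in RNAi. Of 7 neuronal markers 2 were lower in OE, and 4 were higher and 1 lower in RNAi. Of 4 haemocyte markers 2 were higher in each experiment. Of 6 muscle markers 1 was lower in OE and 1 higher in RNAi, and of 3 female-biased genes 1 was lower in OE and 2 in RNAi. Cytoplasmic ribosomal protein genes were higher for 68 of 84 in OE and lower for 64 of 84 in RNAi. The part of these shifts in the members' changes was not tested.

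The members were set beside the control rhythmic genes that peaked in the other 3 windows of 6 h, chosen on the same libraries. In RNAi 24 of the 100 members passed the rhythm test, against 32.6% of 95 genes peaking from ZT0 to ZT6, 23.4% of 94 from ZT6 to ZT12 and 32.8% of 61 from ZT12 to ZT18. In conOE 19 of 99 members passed, and 27 of 93, 14 of 91 and 13 of 59 genes of those groups. In OE the shares were 13.1% of the members and 9.68%, 4.40% and 13.6% of those groups. For the level in OE, the median log2 change was 0.17 for the members, -0.16 for ZT0 to ZT6, -0.14 for ZT6 to ZT12 and 0.03 for ZT12 to ZT18. In RNAi it was -0.09 for the members and -0.06, 0.04 and -0.02 for those groups. These differences between windows were not tested.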

How the data were processed

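RNA was from fly heads in 60 libraries, grouped by genotype, time and course from the sample labels. Per the submitters' processing notes, Bowtie, TopHat and the build dm3 were used; their versions and the counting step were not given in the sources. The authors deposited a signal value for each transcript in each library (8443 transcripts for RNAi, 8669 for OE), which by its steps is a read count divided by a library factor. The authors also deposited p-values and q-values of a rhythm test of their own, used only where named. A further 58 numeric columns were not used. A transcript is listed only with reads in every library, so genes silent in a genotype are missing. CG numbers were matched to symbols through a RefSeq gene table of another build, with no coordinates; 7186 of 7444 and 7378 of 7648 genes matched by locus tag, and 207 and 218 by synonym.

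For each gene the transcript of highest mean was kept. limma-trend 3.58.1 in R 4.3.3 was fitted to log2(value + 1) over all genes of a table, with Benjamini-Hochberg adjustment: a moderated F test of the 24 h cosine and sine per genotype, the genotype difference with time as a factor, and, in the OE experiment, genotype by cosine and sine. The conRNAi rhythm was fitted by ordinary least squares, also in R, and the counts were made in Python 3.11.15. Log2 changes on this scale understate the change of low genes. Fits were tested on simulated data. Errors are SE of the fit or SD over libraries, as named.

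The members and lists were chosen with earlier results of these data known. The genes named were the 12 members of lowest conRNAi p, 5 of lowest p per other rhythm, up to 5 highest and 5 lowest changes per experiment, 3 of lowest rhythm difference, 3 on each side of the threshold, and members in any of 26 gene lists; others, and the groups by role, were named after their values were seen. No sequences were used.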

Additional observations from a re-analysis of the deposited data

How the results depend on the processing

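The alternatives were pseudocounts of 5 and 0.5, a filter on a mean of 20, median-of-ratios and TMM rescaling, no moderation of the variance, a replicate block, each course left out, no libraries under 1000000 reads, another choice of transcript and, added after seeing the data, no ZT23 libraries and a block of course and time. Of 195 recomputed summaries, 178 stayed within 1.5 times the reported count or within 1 SD between courses, and no single gene changed direction; of 505 values of single genes, 13 lost the call. The median amplitude of the members in conOE, 0.29, was 0.28 with the filter, with median-of-ratios and with TMM rescaling. Without moderation 8 members had a rhythm in conOE and 6 in OE, and without ZT23 8 in conOE. With 1 course left out, the rule gave 48 to 87 genes, the rhythm counts were 14 to 22 in RNAi, 1 to 2 in conOE and 14 in OE, members higher in RNAi were 5 to 11, and the median amplitudes were 0.26 to 0.30 in RNAi, 0.31 to 0.32 in conOE and 0.28 to 0.36 in OE. Course numbers fell short of the bar set for pairing, a correlation of deviations over 0.1 in every same-numbered pair: it was over 0.1 in 9 of 18 same-numbered pairs of the RNAi table (median 0.10) and in 4 of 36 others (median -0.06), and in 4 of 12 of either kind in the OE table. Some sharing within a course is thus seen in the RNAi table. In the OE table, with 2 courses, the deviations at each time are equal and opposite. The 2 kinds of pair there mirror each other in sign and are not separate sets. With a replicate block 127 genes met the rule, 92 of them members, and 31, 20 and 17 members had a rhythm in RNAi, conOE and OE; 45 members were higher and 24 lower in OE, and 9 higher and 36 lower in RNAi. A count model on recovered reads had been planned and was not run, since whole reads could not be recovered with certainty for many libraries, so read totals are estimates. The shallowest library of each genotype, with about 348990 to 703928 reads, is at ZT23, inside the window.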
